A study of Homo sapiens with 21 samples.

Results

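WNT5A, WNT5B and WNT11 are secreted ligands, and ROR1, ROR2 and RYK are membrane receptors, of the branch of WNT signalling that does not run through beta-catenin. These 6 genes were taken as named members out of 19974 RefSeq protein-coding genes, and each gene was given a window of its body plus 50 kb on each side. An enriched region was assigned to a gene when its midpoint lay in that window. The 15 region lists of the series held 854 such regions. The rule names the genes and uses no measured value.

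In noncanonical signalling a WNT ligand binds a Frizzled protein together with ROR1, ROR2 or RYK, single-pass proteins with tyrosine-kinase folds, and acts on the cytoskeleton, cell polarity and calcium rather than on beta-catenin. In melanoma WNT5A is known for its link to invasive, poorly pigmented cells. ROR1 and ROR2 are the receptors most often tied to it there, and RYK also serves WNT ligands in axon guidance.

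The libraries came from 4 established human melanoma lines, A375, SKMEL-147, 501mel and SKMEL-5, and the labels give skin as the tissue of all of them. ATAC-seq, which maps open chromatin, was available in all 4 lines, in A375 from cells named A375-GFP. Acetylation of histone H3 at lysine 27 (K27ac), found at active promoters and enhancers, was available for 501mel, SKMEL-5, SKMEL-147 and A375-GFP, and for A375 with the hairpins shNTC (2 replicates), shH2 and shH3. CTCF, which organises chromatin loops, was mapped in 501mel and SKMEL-5, and HA-tagged HOXD13, a homeobox transcription factor, in A375. The labels give no target for shH2 and shH3. HOXD13 silencing and overexpression are named in the series design, and shNTC is taken here to be a non-targeting hairpin. The constructs are described as doxycycline-induced over 72 h at 1 µg/ml, without saying which samples received the drug or which libraries were ChIP-seq and which CUT&Tag. The term siNTC, absent from the label, appears in the region names of 501mel ATAC. Clonality and separate culture of the 2 shNTC replicates are not stated either, and the HA library of A375-GFP and 5 IgG libraries were not analysed here.

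Each library except shNTC stands alone, so differences below are descriptions of these libraries without a test, and 2 libraries against 2 could not reach an exact permutation p below 0.333. The lists hold no read counts and depth is unknown. List length ran from 29176 (HOXD13-HA) to 163102 regions (SKMEL-147 ATAC), and for K27ac from 42115 (SKMEL-5) to 139985 (A375-GFP). The K27ac lists of 501mel and SKMEL-147 stand apart: they covered a gene start for 7.85% and 7.21% of the 15812 genes with a mapped start, against 29.2% to 51.8% in the other 6 K27ac lists. Missing K27ac at a start in those 2 lists therefore carries little information. As a check of the labels, all 6 melanocytic markers (MITF, SOX10, PMEL, MLANA, TYR, DCT) had K27ac in their windows in every line. That count does not tell the lines apart. Of all genes, 67.0% in 501mel, 81.2% in SKMEL-5, 72.0% in SKMEL-147 and 84.5% in A375-GFP had K27ac in the window. Of 5 markers of undifferentiated melanoma (AXL, EGFR, NGFR, ZEB1, TNC), 1 had it in 501mel, 3 in SKMEL-5 and all 5 in both SKMEL-147 and A375-GFP. Of 12 keratinocyte, fibroblast and T cell markers, between 3 (501mel) and 10 (A375-GFP) also had a K27ac region, so such a region in a window does not by itself mark expression.

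The starts of the receptors and of WNT5A differ in sequence and in openness. The lines below give the 250 bases before a start in RefSeq GRCh38.p14, on the gene's strand from 5′ to 3′, with CpG dinucleotides in capitals. They are shown because the 3 receptor starts were open in all 4 lines and the WNT5A starts were not.

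WNT5A upper start, chr3:55487307-55487556, minus strand: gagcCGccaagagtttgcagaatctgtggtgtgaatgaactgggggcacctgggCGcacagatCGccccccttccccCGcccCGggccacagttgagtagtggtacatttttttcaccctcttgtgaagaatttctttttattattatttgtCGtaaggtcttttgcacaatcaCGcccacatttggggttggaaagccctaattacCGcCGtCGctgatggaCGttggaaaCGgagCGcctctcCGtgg
WNT5A lower start, chr3:55481399-55481648, minus strand: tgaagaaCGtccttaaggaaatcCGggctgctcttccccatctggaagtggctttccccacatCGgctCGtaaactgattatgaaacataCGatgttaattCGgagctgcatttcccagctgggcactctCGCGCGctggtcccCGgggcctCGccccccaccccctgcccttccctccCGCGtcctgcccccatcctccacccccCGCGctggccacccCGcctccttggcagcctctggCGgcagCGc
ROR1 start, chr1:63773767-63774016, plus strand: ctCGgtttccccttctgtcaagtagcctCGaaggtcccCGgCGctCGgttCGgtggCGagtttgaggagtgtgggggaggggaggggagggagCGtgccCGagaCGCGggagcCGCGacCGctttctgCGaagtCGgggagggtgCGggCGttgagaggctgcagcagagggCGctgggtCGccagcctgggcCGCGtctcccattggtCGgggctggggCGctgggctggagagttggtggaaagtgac
ROR2 start, chr9:91950229-91950478, minus strand: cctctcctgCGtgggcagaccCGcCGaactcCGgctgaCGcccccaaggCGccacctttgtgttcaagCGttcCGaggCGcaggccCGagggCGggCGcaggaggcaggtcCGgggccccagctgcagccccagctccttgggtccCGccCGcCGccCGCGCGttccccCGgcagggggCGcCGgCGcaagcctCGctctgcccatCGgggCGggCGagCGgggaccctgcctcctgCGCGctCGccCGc
RYK start, chr3:134250860-134251109, minus strand: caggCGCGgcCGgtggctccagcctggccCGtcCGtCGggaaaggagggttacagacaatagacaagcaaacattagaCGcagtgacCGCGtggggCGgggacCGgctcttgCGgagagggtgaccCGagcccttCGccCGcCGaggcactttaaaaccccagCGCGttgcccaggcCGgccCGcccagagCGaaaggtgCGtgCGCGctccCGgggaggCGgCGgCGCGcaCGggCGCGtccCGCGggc

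RefSeq gave 7 starts for 5 of the genes, and WNT11 had none. The receptor windows held 24 (ROR1), 32 (ROR2) and 34 (RYK) CpG dinucleotides. The WNT5A windows held 18 at the lower start and 14 at the upper one, and both WNT5B windows held fewer, 10 and 7. The median of 22132 starts was 16. A HOXD13-type sequence TCGTAAA, searched on both strands, occurred once, before the lower WNT5A start. It was found before 0.461% of all starts. The other HOXD13-type sequence CAATAAA (before 2.69% of starts), the AP-1 sequence TGANTCA (5.35%) and the TEAD sequence GGAATG (10.5%) were in none of the 7 windows. TATAAA (9.00%) stood before the second WNT5B start only.

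ATAC regions lay over the ROR1, ROR2 and RYK starts in every line, where a start means the 300-bp promoter window around it. The background for a start under an ATAC region was 64.2% of genes in 501mel, 56.2% in SKMEL-5, 70.2% in SKMEL-147 and 71.9% in A375-GFP. The ROR1 region had the authors' fold enrichment of 15.1 in 501mel, 8.40 in SKMEL-5, 17.7 in SKMEL-147 and 8.68 in A375-GFP. At RYK the folds were 17.9, 11.1, 17.3 and 12.1 in the same order. ROR2 gave 9.46, 6.71, 4.22 and 7.49. No K27ac region covered the ROR1 or ROR2 start in any of the 8 K27ac lists, although both were open. Within 2 kb of the ROR1 start K27ac was listed in 501mel (1568 bp away), A375-GFP (1901 bp) and shNTC replicate 2 (1805 bp). The RYK start was acetylated in SKMEL-5 (background 40.8% of genes), A375-GFP (36.3%), the shNTC replicates (51.8% and 49.2%), shH2 (29.2%) and shH3 (43.8%). CTCF covered none of the 7 starts (background 28.3% in 501mel and 33.6% in SKMEL-5). Neither WNT5B start was open or acetylated in any list. HOXD13-HA covered none of the 7 starts, as against 1.68% of genes with a start, and the nearest HOXD13-HA region was 4010 bp from a WNT5A start.

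WNT5A, the ligand (chr3:55465715-55505263, minus strand), was the one member with K27ac in SKMEL-147 and A375-GFP and in neither other line. Its window held 0 K27ac regions in 501mel, 0 in SKMEL-5, 7 in SKMEL-147 and 14 in A375-GFP. Every A375 list of the silencing series also had K27ac there. That pattern was held by 3.56% of all genes (712 of 19974). Open regions followed the same split, with 3 in 501mel, 3 in SKMEL-5, 20 in SKMEL-147 and 11 in A375-GFP. The longer ATAC lists of SKMEL-147 and A375-GFP enter that difference. With each list held to the length of the shortest ATAC list, the counts were 1, 3, 7 and 6. K27ac lists held to one length in the same way gave 0, 0, 2 and 3.

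The upper of the 2 WNT5A starts was among the places that differed between the lines. In A375-GFP an ATAC region (chr3:55486207-55488599, fold 3.82) and a K27ac region (chr3:55486504-55488246, fold 5.52) spanned it. SKMEL-147 had an ATAC region of nearly the same extent (chr3:55486299-55488760, fold 6.86) and a K27ac region there (chr3:55487246-55487955, fold 3.60). In 501mel and SKMEL-5 the nearest ATAC regions lay 1730 and 1790 bp away. These 2 regions shared 1 place inside the gene (chr3:55485024-55485576 in 501mel), which CTCF also occupied in both lines. A further 501mel CTCF region (chr3:55487577-55487880, fold 5.45) lay 271 bp before the upper start, which was not listed as open there. Of the silencing lists, shNTC replicate 2 had K27ac over the upper start. The lower start was open in no line, and K27ac covered it in both shNTC replicates and in shH3.

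Most merged K27ac sites of the WNT5A window were in 1 line only, as were most sites genome-wide (144534 of 192984). Sites in SKMEL-147 and A375-GFP alone numbered 12430 genome-wide. Merged over the 4 lines, the window held 18 K27ac sites, of which 12 were in A375-GFP alone, 4 in SKMEL-147 alone and 2 in both. The strongest A375-GFP region by fold was chr3:55476840-55478166 (8.78), and the strongest in SKMEL-147 was chr3:55466397-55468525 (8.45), both inside the gene. Of 23 merged ATAC sites 2 were open in all 4 lines, 6 in SKMEL-147 and A375-GFP alone and 12 in SKMEL-147 alone. Genome-wide, 14.7% of 228532 ATAC sites were open in all 4 lines. Another 29871 were open in SKMEL-147 and A375-GFP alone and 64319 in SKMEL-147 alone.

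**Figure D1:**
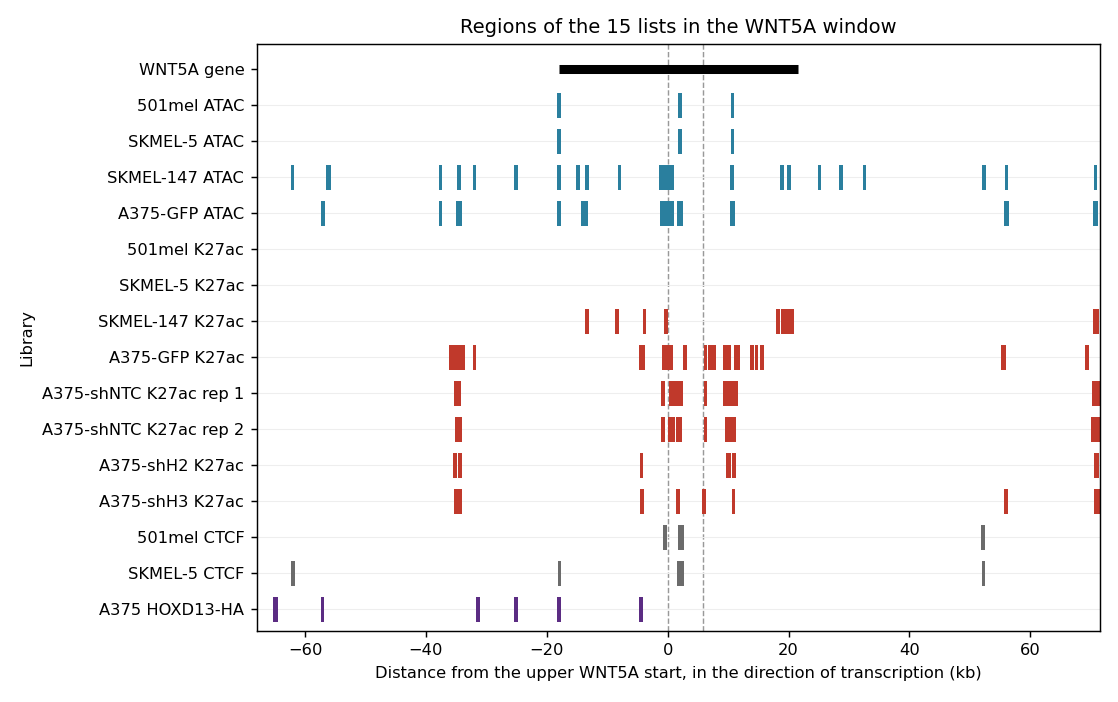
Regions of the 15 lists (rows) in the WNT5A window, by distance in kb from the upper start in the direction of transcription (x axis); bars are regions, widened to at least 0.6 kb to be visible, the black bar is the gene and dashed lines are the 2 starts. The 501mel and SKMEL-5 K27ac rows are empty, and the upper start is covered by ATAC only in SKMEL-147 and A375-GFP.

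WNT5B (chr12:1617056-1647212, plus strand), the close relative of WNT5A, had regions in every K27ac list. The counts were 3 in 501mel, 5 in SKMEL-5, 5 in SKMEL-147 and 14 in A375-GFP. Its most prominent places lay outside the gene. Near the lower neighbour FBXL14 the strongest A375-GFP region was chr12:1594514-1595485 (fold 11.6), and regions at that place were listed in 501mel and SKMEL-5 too. At the upper end, a site beside ADIPOR2 was the strongest ATAC region of the window in all 4 lines (folds 17.9 in 501mel, 14.1 in SKMEL-5, 27.2 in SKMEL-147 and 13.7 in A375-GFP). These sites are nearer to neighbouring genes than to WNT5B.

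WNT11 (chr11:76186325-76210761), a ligand of gastrulation movements and of heart and kidney development, had 2 K27ac regions in 501mel, 2 in SKMEL-5, 0 in SKMEL-147 and 8 in A375-GFP. By fold, a place below the gene, chr11:76152800-76154191, led in shNTC replicate 2 (14.4) and shH2 (7.79). In A375-GFP the strongest place was above the gene, chr11:76233175-76235397, with a fold of 19.8. It overlapped open regions of all 4 lines and a CTCF region of SKMEL-5, and a CTCF region of 501mel began just above it. SKMEL-147 listed 17 open regions in this window and no K27ac.

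**Figure D2:**
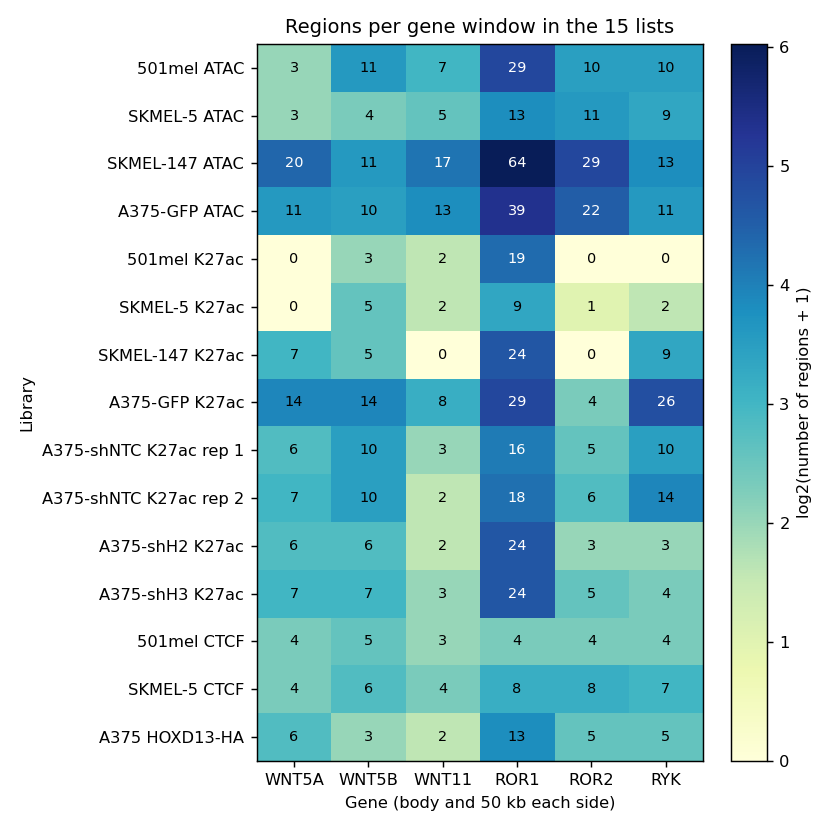
Number of regions (printed in each cell, colour on a log2 scale) in the window of each of the 6 genes (columns) in the 15 lists (rows). WNT5A has 0 K27ac regions in 501mel and SKMEL-5, and ROR2 and RYK have 0 in 501mel.

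ROR1 (chr1:63774017-64181498, plus strand), a long gene, had the most regions of the 6 in almost every list. K27ac regions numbered 19 in 501mel, 9 in SKMEL-5, 24 in SKMEL-147 and 29 in A375-GFP. Open regions numbered 29, 13, 64 and 39. Per 100 kb of window, however, its K27ac density in A375-GFP was 5.71, and 53.4% of genes were at least as dense. In the 4 lines most K27ac regions of the window lay within the gene, and none covered its start. The strongest regions were chr1:63815722-63818320 in A375-GFP (fold 15.7), chr1:64005855-64008412 in SKMEL-147 (8.34) and chr1:64038290-64039423 in 501mel (5.38). The strongest in SKMEL-5 was chr1:64229557-64232149 (10.9), over the neighbour UBE2U. In the shNTC replicates the strongest lay just above the gene, at chr1:64182739-64185294 (19.1) and chr1:64182796-64185281 (13.1). A site inside ROR1 was the single one of 127 merged K27ac sites of the 6 windows to be acetylated in all 4 lines, and genome-wide 2.89% of such sites were. It was listed as chr1:64090920-64095288 in A375-GFP (fold 10.4), and within that span in 501mel (4.02), SKMEL-5 (4.37) and SKMEL-147 (3.48).

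ROR2 (chr9:91722601-91950228, minus strand), the receptor of WNT5A in skeletal development, had the lowest K27ac density of the 6 in A375-GFP. It held 0 in 501mel, 1 in SKMEL-5, 0 in SKMEL-147 and 4 in A375-GFP, and 76.5% of genes were at least as dense in A375-GFP. The silencing series listed 5 and 6 in the shNTC replicates, 3 in shH2 and 5 in shH3. Open regions were more numerous, at 10, 11, 29 and 22 in 501mel, SKMEL-5, SKMEL-147 and A375-GFP. In ATAC density, 77.0%, 46.6%, 42.7% and 42.5% of genes were at least as dense in the same order. Of these ATAC regions K27ac overlapped 0, 1, 0 and 2. Over all ATAC regions the shares with K27ac were 18.5%, 41.3%, 19.1% and 37.3%. Each of the 5 merged K27ac sites of ROR2 was in 1 line only, as were 144534 of 192984 sites genome-wide.

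RYK (chr3:134157133-134250859, minus strand) had 0 K27ac regions in 501mel, 2 in SKMEL-5, 9 in SKMEL-147 and 26 in A375-GFP. Its openness differed less, at 10, 9, 13 and 11 regions. Of 19 merged ATAC sites 5 were open in all 4 lines (26.3%, against 14.7% of all ATAC sites). The highest K27ac folds of the 6 windows were inside this gene, at chr3:134198585-134204476, a merged site of the shNTC replicates with folds of 32.5 and 35.3. SKMEL-147 had its strongest region of the window in the same place (chr3:134198229-134203373, fold 22.5). In 501mel and SKMEL-5 no K27ac was listed there. A CTCF region ended just below that site in both lines, and the strongest CTCF region of all 6 windows lay farther up in the same gene (chr3:134212670-134214062, fold 37.1 in 501mel, and chr3:134212667-134213704, fold 57.5 in SKMEL-5).

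**Figure D3:**
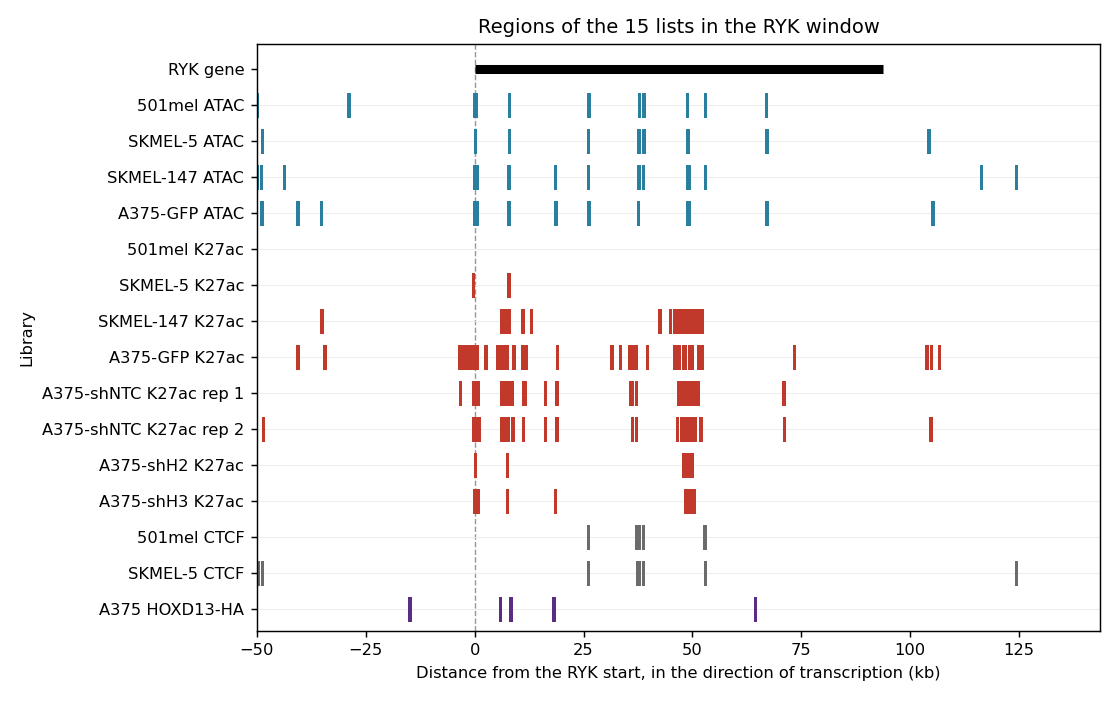
Regions of the 15 lists (rows) in the RYK window, by distance in kb from its start in the direction of transcription (x axis); bars are regions, widened to at least 0.8 kb to be visible, the black bar is the gene and the dashed line its start. The start is covered by ATAC in all 4 lines, and both hairpin rows hold fewer K27ac regions (3 and 4) than the shNTC rows (10 and 14). The hairpin lists were shorter as a whole, and K27ac-covered length was lower in both of them for 94.9% of 17563 genes.

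Counted over the 6 genes, K27ac was listed for 3 in 501mel, 5 in SKMEL-5, 4 in SKMEL-147 and 6 in A375-GFP. The background was 67.0%, 81.2%, 72.0% and 84.5% of all genes. In the silencing series all 6 had K27ac in every list (background 88.9% and 88.7% for the shNTC replicates, 79.9% for shH2 and 85.2% for shH3). ATAC regions were listed for all 6 in every line (background 97.5% in 501mel, 95.7% in SKMEL-5, 99.0% in SKMEL-147 and 98.3% in A375-GFP). CTCF regions were listed for all 6 in both lines mapped (background 88.9% in 501mel and 93.5% in SKMEL-5). CTCF had 24 regions in the 6 windows in 501mel and 37 in SKMEL-5. Of the 501mel regions 20 (83.3%) overlapped one of SKMEL-5, against 76.9% of the whole list, and of the SKMEL-5 regions 19 (51.4%) overlapped one of 501mel, against 58.3%. In 501mel every CTCF region of WNT11, ROR2 and RYK was shared with SKMEL-5. For ROR1 it was 2 of 4.

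HOXD13-HA regions were present in the window of all 6 genes, where the background was 60.2% of genes. WNT5A had 6, WNT5B 3, WNT11 2, ROR1 13, ROR2 5 and RYK 5, a total of 34. At 4.30 regions per 100 kb WNT5A was among the densest windows, since 1.28% of all genes had at least that density. The same share was 7.61% for RYK, 7.77% for ROR1, 9.76% for WNT5B, 21.8% for WNT11 and 23.4% for ROR2. Only 1 of the 6 WNT5A regions lay within the gene body. With regions held to a −log10 q of at least 10 the WNT5A count was 2, and within 10 kb of the gene it was 3. The HA background of A375-GFP was not analysed here.

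At WNT5A the strongest HOXD13-HA region was chr3:55551853-55552660, with a fold of 16.1 and rank 54 of 29176. It lay 46993 bp beyond the upper end of WNT5A, inside the neighbour ERC2, and overlapped no region of the other 14 lists. The second by fold, chr3:55491316-55492083 (5.17), lay inside WNT5A, with its midpoint at −4393 bp from the upper start, negative meaning before it. It was not open in A375-GFP and was acetylated in A375-GFP, shH2 and shH3, in neither shNTC replicate. The other 4 had folds of 2.53 to 3.97.

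Apart from the 16.1-fold region no HOXD13-HA fold of the 6 windows exceeded 6.89, and the WNT5A median was 3.48. ROR1 ranged from 2.33 to 6.89, ROR2 from 2.63 to 5.64 and RYK from 2.40 to 5.94, with medians of 3.82, 3.53 and 3.46 against 3.93 over the whole list. WNT5B ranged from 3.87 to 6.25, all 3 below the gene, and WNT11 had folds of 3.22 and 4.86. The strongest ROR1 region, chr1:63731447-63731996, lay 42296 bp before the gene in chromatin that was open in A375-GFP and SKMEL-147. K27ac overlapped that region in SKMEL-147, both shNTC replicates, shH2 and shH3, but not in A375-GFP. The strongest RYK region, chr3:134244546-134245286, lay 5943 bp inside the gene from its start. It was acetylated in A375-GFP, SKMEL-147 and both shNTC replicates, and no hairpin region overlapped it. The merged shNTC site that overlapped it, chr3:134241800-134245091, was still listed with both hairpins elsewhere along its length (folds 5.58 in shH2 and 6.45 in shH3).

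Of the 34 HOXD13-HA regions 15 overlapped an A375-GFP ATAC region (44.1%, Wilson 95% interval 28.9 to 60.5), and 34.1% of all HOXD13-HA regions did. K27ac of A375-GFP was overlapped by 7 (20.6%, 10.3 to 36.8), against 22.2%. These intervals cover counting error only. The open ones were mostly at ROR1, with 9 of 13, while 2 of 6 were open at WNT5A, 3 of 5 at ROR2, 1 of 5 at RYK and 0 of 5 at WNT5B and WNT11. In 17 of 34 cases neither mark was listed, against 58.5% of all HOXD13-HA regions, and 13 regions overlapped no other list (38.2%, against 45.5% of all).

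**Figure D4:**
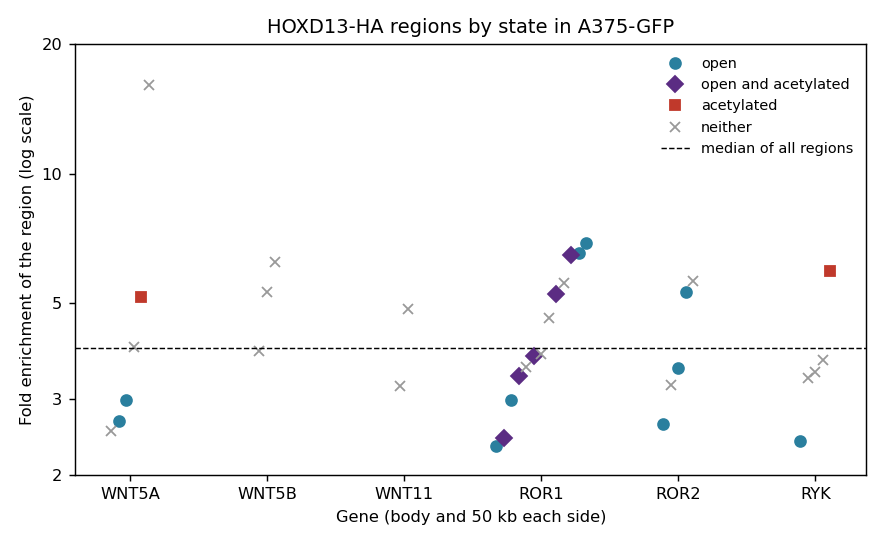
The authors' fold enrichment (y axis, log scale) of the 34 HOXD13-HA regions in the 6 gene windows (x axis), 1 point per region, with the symbol giving overlap with A375-GFP ATAC (open) and K27ac (acetylated); the dashed line is the median of all 29176 regions, 3.93. The 16.1-fold WNT5A region is marked by neither, and 9 of the 13 ROR1 regions are open.

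With the hairpins, K27ac covered less of 5 of the 6 windows than in either shNTC replicate. The hairpin lists as a whole covered less, however, and 94.9% of 17563 genes showed the same non-overlapping order. The reverse order was found for 0.245% of genes and for none of the 6. RYK had 15.5 and 14.4 kb in the shNTC replicates, 4.51 kb in shH2 and 5.36 kb in shH3, a ratio of hairpin to shNTC means of 0.330. ROR2 had 6.89 and 7.38 kb, then 1.91 and 4.02 kb (ratio 0.415). For WNT5B the values were 12.0 and 10.9 kb, then 3.44 and 6.30 kb (ratio 0.426). The median gene had a ratio of 0.380, so these 3 genes lay near the middle of all genes.

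WNT5A had 8.31 and 7.64 kb in shNTC, 3.60 kb in shH2 and 4.52 kb in shH3 (ratio 0.509), and 76.8% of genes had a ratio at or below that. The WNT5A ratio was 0.315 with a window of 10 kb on each side. It turned to 4.72 with regions held to a −log10 q of at least 10, where 3 regions were left in the 4 lists. The ROR1 window had 21.8 and 21.5 kb in shNTC, 14.5 kb in shH2 and 20.3 kb in shH3 (ratio 0.801). At WNT11 the groups overlapped, with 4.18 and 4.76 kb against 2.87 and 4.31 kb (ratio 0.803). For ROR1 and WNT11, 97.4% of genes had a ratio at or below theirs. With all 4 lists held to the 43634 strongest regions, the ratios were 0.739 for WNT5A, 0.567 for WNT5B, 0.837 for WNT11, 0.874 for ROR1, 0.457 for ROR2 and 0.419 for RYK. The median gene was then at 0.478, and 88.5% of the 16605 genes in that comparison showed the non-overlapping order.

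**Figure D5:**
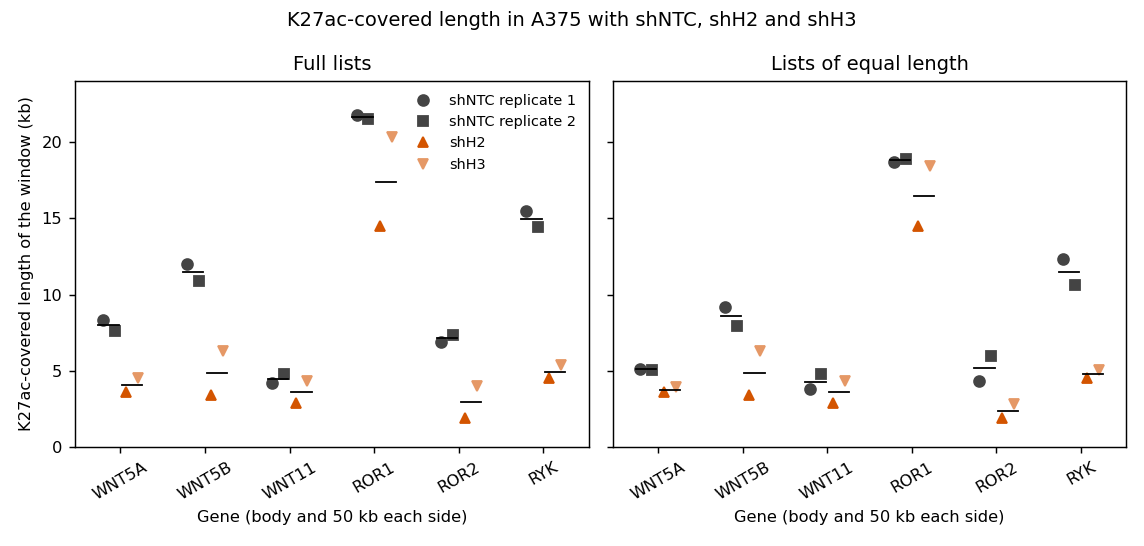
K27ac-covered length in kb (y axis) of the 6 gene windows (x axis) in A375 with shNTC (2 replicates), shH2 and shH3, from the full lists (left) and from lists of equal length (right); points are single libraries and lines are the means of each pair. In the full lists the hairpin points lie below both shNTC points for every gene except WNT11, and ROR1 with shH3 (20.3 kb) is close to shNTC. The same order was found for 94.9% of 17563 genes.

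Site by site, the 6 windows held 46 K27ac sites present in both shNTC replicates, of which 11 (23.9%, Wilson 95% interval 13.9 to 37.9) were in neither hairpin list. Of all 65337 such sites 37.1% were lost in this sense. RYK lost 5 of 9, WNT5B 3 of 9, ROR2 2 of 5, WNT5A 1 of 6, WNT11 0 of 2 and ROR1 0 of 15. Of all genes, 70.7% had at least 1 lost site. The lost WNT5A site, chr3:55487812-55488409, lay just before the upper start and had folds of 8.17 and 5.33 in the shNTC replicates. It was lost in lists of equal length too, where the 6 windows lost 3 of 25 sites (12.0%, against 16.4% of all), the other 2 at RYK. Of those, the RYK site chr3:134231377-134232396 was still listed in the full shH3 list (fold 2.76). Without shNTC replicate 1, 18 of 57 were lost (31.6%, against 45.5%), 10 of them at RYK. Of the 9 sites that overlapped a HOXD13-HA region 1 was lost, at ROR2. Genome-wide 19.4% of such sites were lost, against 39.3% of sites without HOXD13-HA.

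Sites listed with both hairpins and in neither shNTC replicate numbered 3 of 36 (8.33%, against 1.85% of 31235 genome-wide), and 2.99% of all genes had at least 1. The WNT5A site, chr3:55491158-55491912, had folds of 3.23 in shH2 and 6.24 in shH3, lay between the lost site and the 5′ end of the gene and overlapped the HOXD13-HA region described above. The 2 ROR1 sites were chr1:63877357-63878675 (5.31 in shH2 and 5.97 in shH3) and chr1:64132868-64133992 (2.91 and 5.36). Both lay inside the gene in chromatin open in A375-GFP and without HOXD13-HA. In lists of equal length 5 of 31 were gained (16.1%, against 6.46%), with 3 at ROR1 and 1 each at WNT5A and WNT5B. The WNT5B site, chr12:1631020-1631507, overlapped regions of both full shNTC lists (folds 4.86 and 4.49). It counted as gained only because the cut to equal length removed those regions. The WNT5A site and the second ROR1 site were acetylated in A375-GFP as well, so they were not peculiar to the hairpin lists.

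The genes most like a member in covered share of the window, by Pearson's r over the 15 lists, were KRT15 (0.957), KRT35 (0.953) and KRT19 (0.952) for WNT5A. These keratin genes are neighbours that share their windows. For WNT5B they were UTS2 (0.921), GABARAPL1 (0.863) and B3GNT2 (0.860), and for WNT11 MSANTD2 (0.907), LIX1 (0.878) and MAN2B2 (0.872). ROR1 was most like LOC124907996 (0.912), GMDS (0.912) and WWC2 (0.910), and ROR2 like DMRT1 (0.922), SPATA31C2 (0.919) and LOC124904708 (0.906). B3GALNT2 (0.943) and FNDC9 (0.922) were among the 3 genes most like RYK. Between members the highest r was 0.835, for WNT5A and RYK. The 15 lists share lines and list lengths, so these values describe likeness in these libraries only.

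The other genes of the WNT pathway were read against the HOXD13-HA background of 60.2%. That background was not matched for gene length, and longer windows have more room for a region. The counts below are therefore not a measure of density. HOXD13-HA was listed for 9 of 16 other WNT ligands, 5 of 10 Frizzled receptors, 16 of 24 planar polarity and noncanonical effectors, 6 of 11 secreted inhibitors, 1 of 2 ligand secretion genes and 15 of 17 beta-catenin branch genes. Among effectors the highest folds were at DAAM2 (13.9), a formin that acts downstream of Dishevelled, PRICKLE1 (8.38), PRICKLE2 (8.13) and PTK7 (6.30), a WNT co-receptor of planar polarity. CTNNB1 (13.0), which encodes beta-catenin, GSK3B (11.0), the kinase that marks it for destruction, LGR5 (10.4) and NKD2 (7.42) led the beta-catenin branch. For the Frizzled receptors they were FZD7 (9.97), FZD4 (5.70), FZD8 (4.58) and FZD2 (3.63). WNT7B (8.11), WNT2B (6.33), WNT8A (5.25) and WNT16 (4.97) led the ligands, and DKK1 (6.09), WIF1 (5.92), SFRP5 (5.57) and SFRP4 (4.83) the inhibitors. WLS, which carries WNT ligands to the cell surface, had 3.53. These folds are for the strongest region of each window. It lay inside the gene for DAAM2, PRICKLE1, PRICKLE2, PTK7, GSK3B, WNT7B and WLS. For the others named it lay outside, from 184 bp (FZD8) to 48512 bp (WIF1). The distance was 39976 bp for CTNNB1, 41407 bp for LGR5, 30986 bp for FZD7 and 35762 bp for DKK1.

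The line pattern of WNT5A was K27ac in SKMEL-147 and A375-GFP and not in 501mel or SKMEL-5. It was shared by WNT2, WNT7A, FZD8, PRICKLE1, MAPK9, DKK1 and SFRP1, 7 of the 80 pathway genes, beside 3.56% of all genes. The reverse pattern, K27ac in 501mel and SKMEL-5 and not in SKMEL-147 or A375-GFP, was held by WNT6 and NKD2, beside 1.08% of all genes. Both had K27ac in the shNTC replicates of A375, so the pattern does not hold against every A375 list. At least 1 lost site was present for 13 of the 16 other ligands, 6 of 10 Frizzled receptors, 20 of 24 effectors, 14 of 17 beta-catenin branch genes, 6 of 11 inhibitors and both secretion genes, against 70.7% of all genes. Median ratios of hairpin to shNTC covered length were 0.200 for the ligands, 0.531 for the Frizzled receptors, 0.367 for the effectors, 0.442 for the beta-catenin branch, 0.497 for the inhibitors and 0.526 for the secretion genes, beside 0.380 for the median gene. Genes with shared windows were each counted. WNT6 and WNT10A had the same ratio (0.155), and WNT1 (0.123) and WNT10B (0.137) had similar ones, so the ligands are not all separate observations.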

How the data were processed

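The data were 15 lists of enriched regions from 4 melanoma lines, 1 per library. The build was hg38 and the tools named were MACS2, Bowtie2, Trim Galore, deepTools and SAMtools, per the submitters' processing notes; versions and settings are not given in the sources used here. The deposited lists give the authors' score, fold enrichment (a ratio to the caller's background), −log10 p and −log10 q for each region; folds describe regions within a list. Depth is unknown.

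Regions on autosomes and X were kept and assigned by midpoint to RefSeq GRCh38.p14 gene windows (50 kb on each side). The gene table gives no exons. Overlap meant at least 1 bp; lost and gained sites compared the shNTC pair with shH2 and shH3. The interval functions were tested on simulated regions. Python 3.11.15, pandas 2.3.3, numpy 2.4.6 and scipy 1.17.1 were used.

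Named were the 6 genes, the 3 genes most like each, up to 4 genes per pathway list by highest HOXD13-HA fold, and the pathway genes with a line-specific K27ac pattern (named after their values were seen). Members and lists were chosen with earlier results of these data known. Alternatives were other windows, stricter regions, equal list lengths, other overlap rules and leaving out libraries. One marker and one of the genes most like a member are not reported here.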

Additional observations from a re-analysis of the deposited data

How the results depend on the processing

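With a −log10 q of at least 10, the regions in the 6 windows numbered 384 rather than 854 (518 in gene bodies alone), and the members with K27ac were 0 in 501mel and 2 in SKMEL-5, where a 10-kb window left 3. HOXD13-HA regions fell from 34 to 9 with the stricter threshold and to 22 with 10 kb. Lost K27ac sites numbered 11, against 1 with the stricter threshold, 3 in lists of equal length, 5 in 500-bp summit windows and 13 to 18 without 1 shNTC replicate. Gained sites numbered 3, against 0, 5 and 8 under those first 3 settings, 5 against shH3 alone and 4 without either replicate. The ratio of covered length over the 6 windows was 0.559 and ran from 0.455 to 0.662 when 1 library was left out. For WNT5A it was 4.72 with the stricter threshold, where 1 region was left in shNTC replicate 1, 2 in shH3 and 0 in the other lists, so its direction there rests on 3 regions. Shared 501mel CTCF regions were 12 rather than 20. Genes with HOXD13-HA under the stricter threshold were 2 of the other ligands, 3 Frizzled receptors, 7 effectors, 8 beta-catenin branch genes, 3 inhibitors and 0 secretion genes, and with 10 kb 3 ligands, 2 Frizzled receptors and 3 inhibitors. The other 51 of 76 such alternatives stayed within 1.5 times, the counting interval or the spread. The cause of these shifts was not tested, apart from fewer regions or shorter windows by construction. No paired analysis was possible because only shNTC has 2 libraries and the results come from no test. Unknown depth limits every absent region.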
